A study of Mus musculus with 8 samples.

Results

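Peaks of 5-hydroxymethylcytosine (5hmC) in mouse cells on D3 of reprogramming with OySyNyK were compared with those on D1 of the same method, D being read as day. The members are all peaks of these 2 lists, 93694 at D3 and 100951 at D1, which together are 194645 of the 684512 peaks in the 8 lists of the series. A D3 peak that shared no base with any D1 peak was called new, a D1 peak that shared no base with any D3 peak was called lost, and every other peak was called kept, at an overlap of at least 1 bp. The cells at D3 and D1 are labelled as reprogramming intermediates of the OySyNyK method. From background knowledge of the study, this is the factor set Oct4, Sox2, Nanog and Klf4 with a transactivation domain of YAP fused to all of them but Klf4. The lists used only as points of comparison were induced pluripotent stem cells (iPSC) whose title names the same factors, mouse embryonic fibroblasts (MEF), OySyNyK intermediates at D5, and intermediates at D1, D3 and D5 of OSNK, which is the factor set without the fusions.

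Per the labels' protocols, the fibroblasts were OG2-MEFs, vitamin C and leukaemia inhibitory factor were added to the medium for iPSC generation, and iPSC lines were kept on MEF feeder cells. The sources used here do not say whether reprogramming cells were sorted from the other fibroblasts of the culture, so each intermediate list is treated as that of a whole culture. Each group had 1 library, so no difference between days has a test, and the sequencing depth of the libraries is unknown. Intervals in the text are exact 95% binomial intervals, which cover counting error only and not the spread between cultures. The lists hold no expression values and were not assigned to genes, so the cell type labels were not checked against marker genes.

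5hmC is made from 5-methylcytosine by the TET enzymes, which use vitamin C as a cofactor, and is both a step on the way to unmethylated cytosine and a mark that can persist. In differentiated cells it is known from enhancers and from the bodies of transcribed genes, and in pluripotent cells Tet1 and Tet2 are the main TET genes expressed. The capture used in this study adds a tagged glucose to 5hmC and pulls down the DNA fragments that carry it. A peak is therefore a stretch of DNA with more captured fragments than its surroundings, and not a single modified base. In reprogramming, a peak present in fibroblasts and later absent can mark DNA that no longer carries 5hmC, and also DNA whose signal fell below the calling threshold.

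In a culture, fewer cells with 5hmC at a site and less 5hmC per cell cannot be told apart. A large minority of the D3 list had no counterpart at D1, and a slightly larger part of the D1 list had none at D3. New peaks numbered 32635 at D3, which was 34.8% of the D3 list (95% interval 34.5 to 35.1). Lost peaks numbered 39926 at D1, which was 39.5% of the D1 list (39.2 to 39.9). New peaks held 21.0 of the 74.3 Mb covered at D3, and lost peaks held 24.5 of the 76.9 Mb covered at D1. Kept peaks mostly matched 1 to 1: of the D3 peaks 62.4% overlapped a single D1 peak, 2.63% overlapped 2 and 0.104% overlapped 3 or more. Of the D1 peaks 57.9% overlapped a single D3 peak and 2.47% overlapped 2, so joining and splitting of peaks was rare in both directions.

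The D1 list was the longer one, so the comparison was repeated with equal numbers. With the 93694 best-scoring peaks of each day, 37.2% of D3 peaks were new and 37.5% of D1 peaks were lost, in numbers 34863 and 35122. With the 54938 best-scoring peaks of every list, which is the length of the shortest list, the shares were 38.7% and 39.0%. The excess of lost over new peaks in the full lists was nearly absent when list lengths were equal, but this was largely fixed in advance. Kept peaks of the full lists numbered 61059 at D3 and 61025 at D1. When kept peaks are nearly as many on both days, lists of equal length must leave nearly equal numbers of new and lost peaks. The repeat therefore cannot decide whether loss exceeded gain.

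New and lost peaks were weaker and narrower than kept peaks of the same day. The score of a peak is the authors' value. No file header explains it, and it was taken to be the MACS score, the log10 of a p-value multiplied by -10, from the form of the peak names and the lowest score, which was 50 in each list. New D3 peaks had a median score of 66.3 (quartiles 56.6 and 84.4), and kept D3 peaks one of 102.8 (71.4 and 161). Lost D1 peaks had a median score of 72.9 (59.1 and 100.1), and kept D1 peaks one of 125 (79.4 and 212). A score of at least 100 was reached by 14.0% of new and 51.7% of kept D3 peaks, and by 25.1% of lost and 62.2% of kept D1 peaks. The median width was 583 bp for new and 744 bp for kept D3 peaks, and 566 bp for lost and 744 bp for kept D1 peaks. Of peaks 4 kb or wider, 1 was new against 75 kept at D3, and none was lost against 44 kept at D1.

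The share of peaks that were new or lost went down steadily with score. Of D3 peaks scoring 50 to 60, 59.1% were new, against 20.4% of those scoring 100 to 150 and 0.369% of those scoring 300 or more. Of D1 peaks in the same score ranges, 64.7%, 34.3% and 1.78% were lost. In each of the 7 score ranges the share lost at D1 was above the share new at D3, and between 200 and 300 2.73% were new (2.34 to 3.16) against 9.97% lost (9.38 to 10.6). D3 scores were lower as a whole, with a median of 84.2 at D3 and 95.8 at D1, so a fixed range holds peaks of different rank on the 2 days. By quartile group of each day's own score the gap was smaller, with 7.19% new and 9.89% lost in the strongest group and 58.4% new and 63.1% lost in the weakest. The same order was seen for width. In the narrowest quartile group of each list 53.4% of D3 peaks were new and 61.8% of D1 peaks were lost, and in the widest quartile group 16.3% were new and 16.4% were lost.

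**Figure D1:**
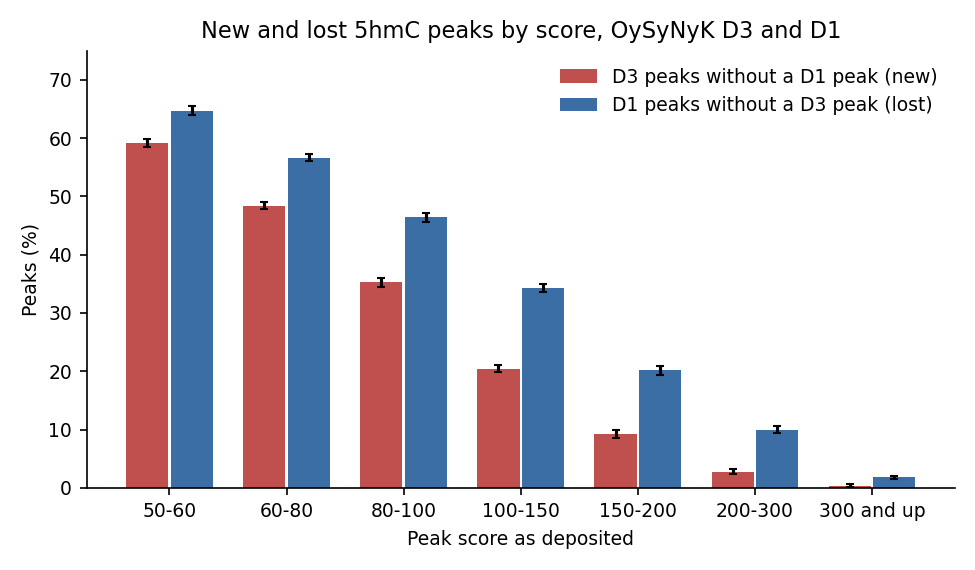
Share of D3 peaks that were new (left bars) and of D1 peaks that were lost (right bars) in 7 ranges of the deposited peak score, with exact 95% binomial intervals. Both shares go down from the lowest range (59.1% and 64.7%) to the highest (0.369% and 1.78%), and the lost share is above the new share in each range.

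Most new peaks lay within 10 kb of a D1 peak, but at the median they were farther from it than D3 peaks were from one another. The median distance from a new D3 peak to the nearest D1 peak was 3089 bp (quartiles 995 and 8715 bp), and 25.1% of new peaks lay within 1 kb and 77.9% within 10 kb of a D1 peak. Of the 32635 new peaks 279, or 0.855%, lay more than 100 kb from any D1 peak. Lost D1 peaks lay farther from the peaks of the other day, with a median distance of 4243 bp to the nearest D3 peak. Of the lost peaks 21.9% lay within 1 kb and 68.9% within 10 kb of a D3 peak, and 4.43% lay more than 100 kb away. For scale, the median distance between neighbouring peaks of one list was 2099 bp at D3 and 2188 bp at D1. Of all D3 peaks 34.1% lay within 1 kb and 82.4% within 10 kb of another D3 peak, and 1.06% lay more than 100 kb away. Of all D1 peaks 33.8% lay within 1 kb and 82.2% within 10 kb of another D1 peak, and 1.05% lay more than 100 kb away. The nearest other new peak was 9392 bp away at the median, and the nearest other lost peak of a lost peak 9240 bp. With a score of at least 100 in all lists the median distances were 5104 bp for new and 10003 bp for lost peaks, and with equal numbers in all lists 4943 and 6744 bp.

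**Figure D2:**
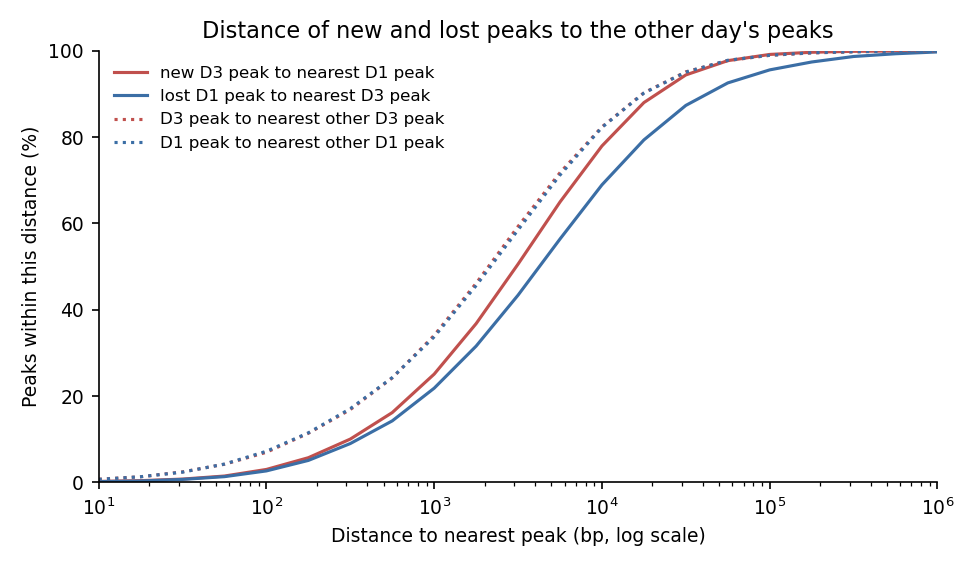
Cumulative share of peaks (vertical axis) whose nearest peak lies within the distance on the horizontal axis (bp, log scale). Solid lines are new D3 peaks to D1 peaks and lost D1 peaks to D3 peaks, and dotted lines are the spacing within each list. The new peaks (median 3089 bp) run to the left of the lost peaks (median 4243 bp), and the 2 dotted lines (medians 2099 and 2188 bp) nearly coincide.

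New peaks next to a D1 peak differed from new peaks far from one. Within 500 bp of a D1 peak, 18.6% of new peaks overlapped a MEF peak (17.5 to 19.7), and beyond 10 kb and up to 50 kb 6.86% did (6.24 to 7.51). Overlap with iPSC peaks moved less, between 17.3% and 20.8% in the 5 distance ranges up to 50 kb, and was 11.0% (9.01 to 13.2) for the 912 new peaks beyond 50 kb. Those 912 peaks were also the narrowest, with a median width of 502 bp against 617 bp for new peaks within 500 bp of a D1 peak. For lost peaks the iPSC share went from 6.98% within 500 bp of a D3 peak to 1.504% beyond 50 kb, while the MEF share was highest beyond 50 kb at 51.6% (49.9 to 53.3).

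The end states of reprogramming separated new from lost peaks. Of the new D3 peaks 19.5% overlapped an iPSC peak (19.03 to 19.9), against 5.32% of the lost D1 peaks (5.10 to 5.54). Of the new D3 peaks 10.1% overlapped a MEF peak (9.81 to 10.5), against 45.1% of the lost D1 peaks (44.6 to 45.6). Kept D3 peaks overlapped the iPSC list in 21.4% and the MEF list in 51.2% of cases, and kept D1 peaks in 21.3% and 50.8%. Over the whole D3 list the iPSC share was 20.7% and the MEF share 36.9%. Over the whole D1 list they were 15.0% and 48.6%. Against their own lists, new peaks were thus low in MEF overlap and lost peaks low in iPSC overlap. The MEF share of lost peaks was slightly below that of all D1 peaks. The order of new and lost peaks was the same under all 9 alternatives for both end states. The iPSC shares themselves were lower with a score of at least 100 in all lists, at 11.9% for new and 1.96% for lost peaks. This cut also shortened the iPSC list from 54938 to 12974 peaks. With equal numbers in all lists the shares were 24.4% and 7.02%.

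Most new peaks lay in neither end state. Of the 32635 new peaks, 16.3% were in the iPSC list only, 3.13% in both the iPSC and the MEF list, 7.008% in the MEF list only and 73.5% in neither. Of the 39926 lost peaks, 2.43% were in the iPSC list only, 2.89% in both, 42.2% in the MEF list only and 52.5% in neither. Among kept D3 peaks 8.68% were in the iPSC list only, 12.7% in both, 38.4% in the MEF list only and 40.1% in neither. New peaks of the iPSC list only were stronger and wider than new peaks of neither list, with median scores of 72.4 and 64.9 and median widths of 684 and 559 bp. Lost peaks of the MEF list only had a median score of 86.4, against 66.2 for lost peaks of neither list.

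Read from the side of the end states, D1 peaks that were also iPSC peaks were seldom lost. Of the 6261 D1 peaks in the iPSC list only, 15.5% were lost at D3 (14.6 to 16.4), and of the 8889 in both end-state lists 12.96% (12.3 to 13.7). Of the 40123 D1 peaks in the MEF list only, 42.0% were lost (41.5 to 42.5), and of the 45678 in neither 45.9% (45.4 to 46.3). The order of these last 2 was the other way round with equal numbers in all lists, at 46.0% for the MEF list only and 43.4% for neither. At D3, 50.1% of the 10629 peaks in the iPSC list only were new (49.2 to 51.1), against 8.88% of the 25763 in the MEF list only (8.53 to 9.23), 11.6% of the 8804 in both and 49.5% of the 48498 in neither. With peaks within 1 kb merged, 47.1% of the peaks in the iPSC list only and 49.7% of those in neither were new.

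Because weak peaks were lost and gained more often, the same shares were taken within quartile groups of score. In the strongest quartile group of D1 peaks, scores of 161 and above, 1.35% of the peaks in the iPSC list only were lost (0.81 to 2.10), 2.94% of those in both, 8.53% of those in neither list (7.74 to 9.37) and 13.7% of those in the MEF list only (13.1 to 14.2). In the weakest quartile group the shares were 30.5%, 40.9%, 63.6% and 73.0%, in the same order. In each of the 4 quartile groups D1 peaks of the iPSC list only were lost least often and those of the MEF list only most often. For new peaks at D3 the iPSC list only and the MEF list only changed places, while peaks in both lists stayed below those in neither. In the weakest quartile group 78.4% of the peaks in the iPSC list only were new (76.6 to 80.1) against 19.9% of those in the MEF list only (18.8 to 21.1), and in the strongest quartile group 16.2% (14.9 to 17.5) against 1.52% (1.26 to 1.80).

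**Figure D3:**
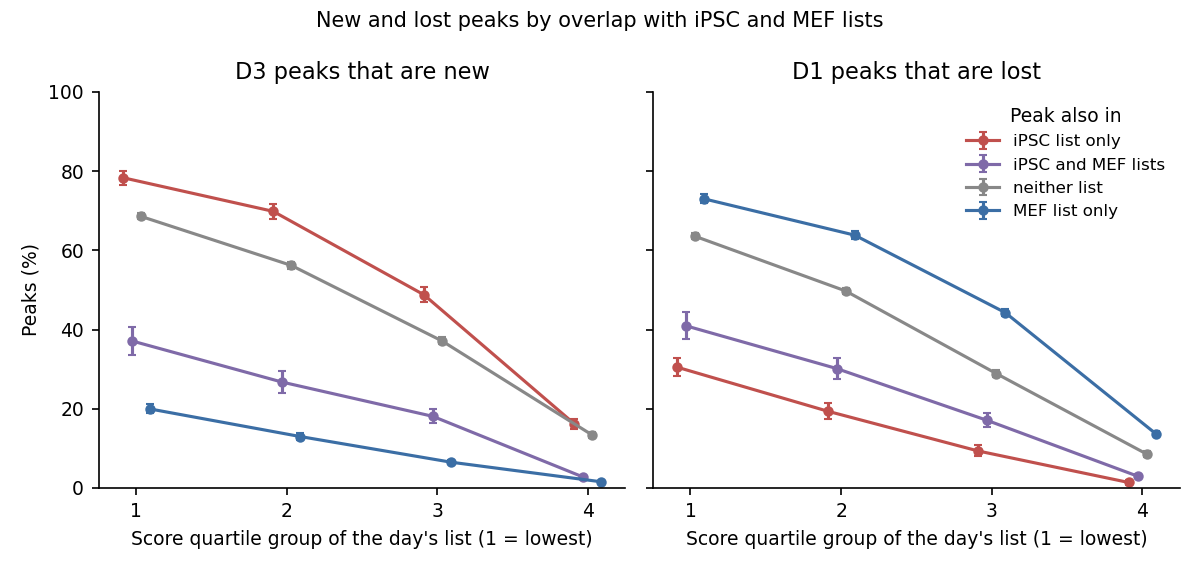
Share of D3 peaks that were new (left panel) and of D1 peaks that were lost (right panel) by quartile group of the day's own score, for peaks also in the iPSC list only, in both the iPSC and MEF lists, in neither or in the MEF list only, with exact 95% binomial intervals. Peaks of the iPSC list only have the highest new share (78.4% to 16.2%) and the lowest lost share (30.5% to 1.35%) in each quartile group.

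At matched score, new peaks overlapped the iPSC list more often than kept peaks did, although the pooled shares ran the other way. In the 4 quartile groups of D3 score, from weak to strong, 14.8%, 18.5%, 25.8% and 38.8% of new peaks overlapped an iPSC peak, against 9.77%, 11.7%, 17.4% and 35.5% of kept peaks. The pooled shares were 19.5% and 21.4%, and their order depended on the setting: new peaks were above kept peaks with a score of at least 100 (11.9% and 11.4%), with at least 50% of the peak overlapped (17.2% and 16.4%) and, by little, with 500-bp peaks (18.19% and 18.17%). The new peaks were also above the kept ones within each quartile group of width, from 10.9% against 7.79% in the narrowest to 38.4% against 35.5% in the widest. For the MEF list, lost D1 peaks stood above kept D1 peaks in each score quartile group, at 30.3%, 43.9%, 63.1% and 83.4% against 23.0%, 31.5%, 47.3% and 75.3%. Pooled, 45.1% of lost and 50.8% of kept D1 peaks overlapped a MEF peak, but with equal numbers in all lists lost peaks stood above kept ones (58.4% and 57.7%), as they did with equal numbers and 500-bp peaks together (54.7% and 51.6%). Within quartile groups of width the order of lost and kept differed, with 34.2% against 28.0% in the narrowest quartile group and 65.9% against 68.7% in the widest.

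Among kept peaks the strength of the peak shifted with the end state. In 54036 pairs, 1 D3 peak and 1 D1 peak overlapped only each other. Midpoints of a pair lay 67 bp apart at the median and the shared bases were 76.3% of all bases of the pair, so that these were largely the same sites on both days. A pair was placed in an end-state list when either of its peaks overlapped a peak of that list. Pairs in the iPSC list only had a median score of 129 at D3 and 101 at D1, and the D3 score was the higher one in 63.9% of 4845 pairs. Pairs in the MEF list only had a median score of 98.9 at D3 and 165 at D1, and the D3 score was higher in 20.5% of 20270 pairs. The median log2 ratio of D3 to D1 score was 0.25 for pairs in the iPSC list only, -0.04 for 22450 pairs in neither list, -0.32 for 6471 pairs in both and -0.64 for pairs in the MEF list only. Over all pairs it was -0.26 (quartiles -0.81 and 0.26), so D3 scores were in general the lower ones, and the groups are read against each other.

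Peak width moved with score in the pairs of the iPSC list only and of the MEF list only, and not in the other groups. Pairs in the iPSC list only had a median width of 846 bp at D3 and 727 bp at D1, and 71.7% of them were wider at D3. Pairs in the MEF list only had 720 bp at D3 and 796 bp at D1, and 38.3% were wider at D3. Pairs in both lists had 975 bp at D3 and 946 bp at D1, and 53.9% were wider at D3 although their median score was lower at D3. Pairs in neither list had 676 bp at D3 and 640 bp at D1, and 58.3% were wider at D3. The ratio of scores fell as the D1 score rose, which is in part built in. The D1 score is the denominator of the ratio, and no D3 score of a pair can lie below the floor of 50. The fall is therefore not read as a gain at weak sites or a loss at strong ones. Only the end-state groups are compared, within quartile groups of D1 score. In the weakest quartile group of D1 scores the median log2 ratio was 0.60 for the iPSC list only and 0.19 for the MEF list only, and in the strongest quartile group -0.25 and -1.06. The iPSC group lay above the MEF group in each quartile group. The order of these 2 groups was the same in all 6 alternatives in which pairs could be formed, with 0.08 against -0.65 when all lists had equal numbers of peaks.

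**Figure D4:**
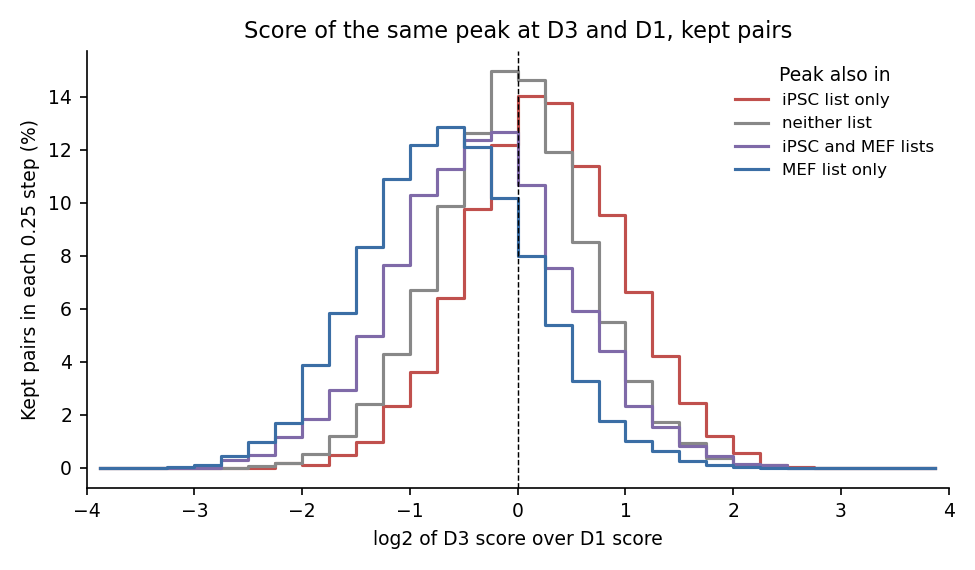
Distribution of the log2 ratio of D3 to D1 score over kept pairs in steps of 0.25, as a percentage of the pairs of each group. From right to left the groups are pairs in the iPSC list only (median 0.25), in neither list (-0.04), in both (-0.32) and in the MEF list only (-0.64), and the dashed line marks equal scores.

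The D5 library of the same method did not enter the definition of new and lost peaks. Of the new D3 peaks 39.0% were overlapped at D5 (38.5 to 39.5), against 60.5% of the kept D3 peaks. New peaks that were also iPSC peaks were found again at D5 in 68.0% of 6349 cases (66.9 to 69.2), and other new peaks in 32.0% of 26286 (31.4 to 32.6). Kept D3 peaks had the same order. Of those in the iPSC list only 83.4% were found at D5, and of those in both end-state lists 87.5%. For the MEF list only it was 56.9% and for neither 50.5%. These shares were not taken at matched score. The share of new peaks found again rose with their score, from 26.7% in the weakest quartile group to 82.0% in the strongest, and was 30.1% and 87.9% for kept peaks of these groups. Of the lost D1 peaks 11.1% were overlapped again at D5 (10.8 to 11.4), and 5.44% with a score of at least 100. Lost peaks in the iPSC list were overlapped at D5 in 36.1% of 2123 cases, and the other lost peaks in 9.70% of 37803.

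OSNK intermediates were made without the fused factors and are separate libraries. Of the new OySyNyK D3 peaks, 34.7% overlapped an OSNK D3 peak (34.2 to 35.2) and 22.3% an OSNK D1 peak (21.9 to 22.8), against 76.6% and 80.1% of the kept D3 peaks. Those present at OSNK D3 and absent at OSNK D1, new in both methods, were 19.4% of the new peaks, and 58.3% were in neither OSNK list. Of the kept D3 peaks 9.10% were at OSNK D3 only and 10.9% in neither OSNK list. Of the lost OySyNyK D1 peaks, 35.0% overlapped an OSNK D3 peak and 68.1% an OSNK D1 peak, against 76.6% and 79.8% of the kept D1 peaks. Lost in both methods, present at OSNK D1 and absent at OSNK D3, were 38.1% of the lost peaks, while 30.0% were in both OSNK lists. Of the kept D1 peaks these shares were 12.5% and 67.3%. Of the peaks lost in both methods 3.88% were iPSC peaks and 59.3% were MEF peaks. Kept OySyNyK D1 peaks that were likewise present at OSNK D1 and absent at OSNK D3 were iPSC peaks in 13.8% and MEF peaks in 59.1% of cases, so the MEF share was like that of kept peaks with the same OSNK pattern and the iPSC share was lower.

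The names new and lost describe these 2 lists and not the first or last appearance of 5hmC at a site. Of the new D3 peaks, 28.0% overlapped a peak of the MEF list or of OSNK D1 (27.5 to 28.5). Of the lost D1 peaks, 47.4% overlapped a peak in at least 1 of the OySyNyK D5, OSNK D3, OSNK D5 and iPSC lists (46.9 to 47.9). A further 25.8% of the new peaks (25.3 to 26.3) and 16.1% of the lost peaks (15.7 to 16.4) overlapped no peak of the other 6 lists, against 3.01% of kept D3 and 3.07% of kept D1 peaks. These peaks of a single list were weak, with median scores of 60.6 and 60.3. The same step with OSNK gave 27.5% new peaks of 89497 at D3 and 41.1% lost peaks of 116302 at D1. New OSNK peaks overlapped iPSC peaks in 15.5% and MEF peaks in 8.16% of cases, and lost OSNK peaks in 4.91% and 39.5%.

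By genome position, loss varied more between chromosomes than gain did. On the 19 autosomes the share of D3 peaks that were new lay between 33.3% on chromosome 8 and 36.3% on chromosome 9. The share of D1 peaks that were lost lay between 33.5% on chromosome 17 (32.1 to 34.9) and 45.4% on chromosome 6 (43.9 to 46.9), with 34.0% on chromosome 11 and 35.96% on chromosome 19. Autosomes with more D1 peaks per Mb lost a smaller share, from 57.8 peaks per Mb on chromosome 11 to 30.0 on chromosome 6 (Pearson's r -0.79, Spearman's rho -0.78 over 19 autosomes, which share the 2 libraries). Along the autosomes the lost share was 42.5% in the fifth nearest the low coordinates and 34.9% in the fifth nearest the high coordinates, while the new share was 35.6% and 34.5%.

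The same held for the neighbourhood of a single peak. D1 peaks with no other D1 peak within 50 kb on either side were lost in 69.4% of 2652 cases (67.6 to 71.2), and those with 20 or more such neighbours in 24.0% of 13084 (23.3 to 24.8). Score moved with this: isolated peaks had a median score of 74.5 and crowded ones one of 117. Within the strongest score quartile group the lost shares were 19.2% with 0 to 4 neighbours (17.9 to 20.6) and 3.89% with 20 or more (3.36 to 4.48), and within the weakest 74.7% and 50.1%. Crowded peaks were thus lost less often than isolated ones at like score.

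Loss was more frequent on the X chromosome than on the autosomes. X had few peaks, 333 at D3 and 634 at D1, and 71.3% of the D1 peaks there were lost (67.6 to 74.8) against 39.3% on the autosomes (39.0 to 39.7). X peaks were weak, with a median score of 71.8 at D1 against 96.0 on the autosomes, and sparse, with 3.94 D1 peaks per Mb. Within score quartile groups from weak to strong, 84.5%, 75.7%, 61.8% and 14.8% of X peaks were lost, against 62.8%, 51.3%, 33.6% and 9.88% on autosomes. In the strongest quartile group the X share rested on 8 of 54 peaks, and its interval (6.62 to 27.1) held the autosomal value. Peaks with few neighbours were lost more often on autosomes too. D1 peaks with no other D1 peak within 50 kb made up 22.4% of X and 2.50% of autosomal peaks, and 80.3% of them were lost on X (72.8 to 86.5) against 68.8% on autosomes (66.95 to 70.6). With 0 to 4 neighbours 74.4% were lost on X (70.2 to 78.3) and 56.1% on autosomes (55.4 to 56.8). When score was matched as well, within the weakest quartile group, 86.5% of X and 74.4% of autosomal peaks with 0 to 4 neighbours were lost, and within the strongest 21.2% (8.98 to 38.9) and 19.2%. Of the lost X peaks 32.7% overlapped a MEF peak (28.4 to 37.3) and 0.664% an iPSC peak (0.137 to 1.93). New peaks made up 46.2% of the X peaks at D3 (40.8 to 51.8), against 34.8% on autosomes. Within quartile groups of D3 score, from weak to strong, the new shares on X were 62.5%, 51.1%, 26.0% and 9.38%. On autosomes they were 58.4%, 45.8%, 27.9% and 7.19%, and each X interval held the autosomal value.

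**Figure D5:**
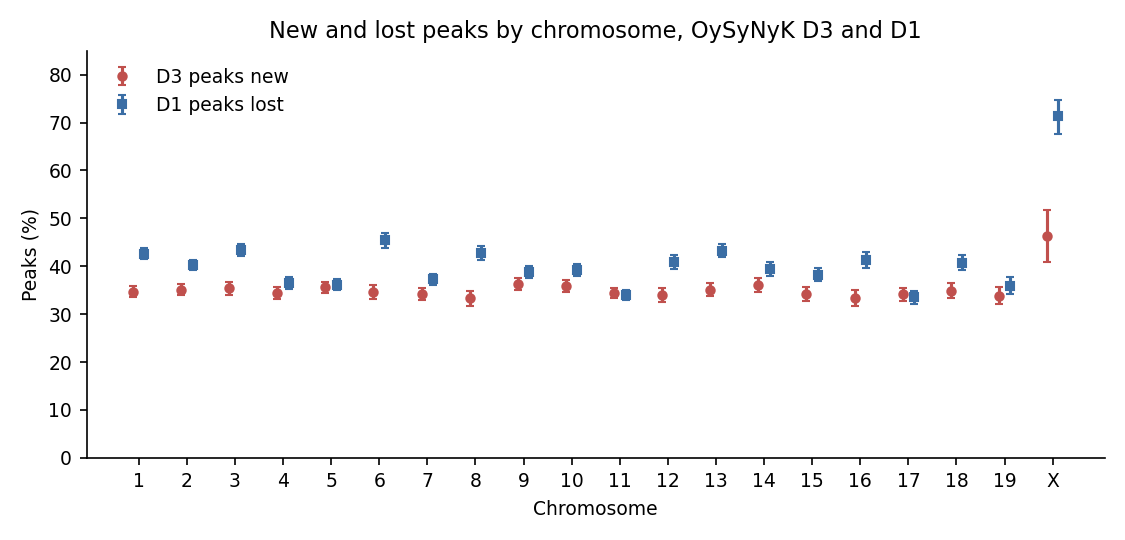
Share of D3 peaks that were new (circles) and of D1 peaks that were lost (squares) on each chromosome, with exact 95% binomial intervals. New shares of the autosomes stay between 33.3% and 36.3%, lost shares run from 33.5% on chromosome 17 to 45.4% on chromosome 6, and X lies above all autosomes with 46.2% new and 71.3% lost.

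The overlap of new peaks with the iPSC list differed by chromosome more than the share of new peaks did. It was 30.0% on chromosome 12 and 24.4% on chromosome 5, and 6.07% on chromosome 13, 6.87% on chromosome 16 and 11.1% on chromosome 18. Without chromosomes 13, 16 and 18, a setting chosen after seeing these values, 21.0% of new and 5.83% of lost peaks overlapped an iPSC peak. Kept D3 peaks moved likewise, from 21.4% to 23.2%. In this setting 52328 of the 54938 iPSC peaks remained, against 82500 of the 93694 D3 peaks. The iPSC list itself thus held few peaks on these chromosomes, and the low overlap there is not particular to new peaks.

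At the scale of 100 kb, regions with new peaks held lost peaks about as often as all regions did. Peaks of D3 or D1 fell in 16580 regions of that size, counted from the start of each chromosome in the coordinates of the lists. Of the 11539 regions that held the midpoint of a new peak 84.2% also held that of a lost peak, against 84.4% of all regions. Of the 13999 with a lost peak 69.4% also held a new one, against 69.6% of all regions. Peak cover, the percentage of bases inside peaks, was higher at D3 in 6643 regions and lower in 9934, with a mean of 4.48% at D3 and 4.64% at D1. Rises of 5 percentage points or more were found in 404 regions, 2.44% of all, and falls of that size in 225 regions, 1.36% of all.

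The regions that rose and those that fell differed in their end states. In the 404 rising regions mean cover was 20.9% at D3 and 13.9% at D1, and then 17.8% at D5, with 11.2% in iPSC and 9.65% in MEF. In the 225 falling regions it was 8.11% at D3 and 14.3% at D1, and then 5.62% at D5, with 2.93% in iPSC and 12.6% in MEF. Cover was higher in iPSC than in MEF in 57.9% of the rising and 2.22% of the falling regions, against 26.9% of all regions. The D5, MEF, iPSC and OSNK lists took no part in the choice of these regions. With OSNK, D3 cover was above D1 in 92.3% of the rising regions and below it in 76.9% of the falling ones, against 44.7% and 52.3% over all regions. OSNK peaks were wider at D3 than at D1, with medians of 911 and 690 bp. Rising and falling regions both had more OySyNyK D1 cover than all regions, whose mean was 4.64%. How far width and peak density enter these OSNK shares was not tested.

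The 5 largest rises held 10 to 17 new peaks each, beside 10 to 24 kept and at most 4 lost ones. On chromosome 18, positions 76200001 to 76300000, cover was 42.3% at D3 and 26.1% at D1, with 11 new, 22 kept and 4 lost peaks, 32.2% at D5, 3.59% in iPSC and 10.2% in MEF. The iPSC cover here was the lowest of the 5 regions, and chromosome 18 is one of those with few iPSC overlaps. On chromosome 15, positions 12100001 to 12200000, cover was 23.8% at D3 and 7.90% at D1, with 13 new peaks and no lost one, 21.4% at D5, 10.2% in iPSC and 5.02% in MEF. On chromosome 17, positions 47300001 to 47400000, it was 39.3% at D3 and 24.5% at D1, again with 13 new peaks and no lost one. On chromosome 7, positions 140200001 to 140300000 had 40.7% at D3 and 26.1% at D1 with 17 new peaks, the most among these regions, and 1 lost peak. On chromosome 5, positions 120900001 to 121000000 had 27.2% at D3 and 13.7% at D1, and iPSC cover of 18.2% there was above the 13.2% of MEF. In all 5 regions OSNK cover was also higher at D3 than at D1, by 11.7 to 25.2 percentage points.

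The 5 largest falls were stretches with 10 to 16 lost peaks, 6 to 16 kept D1 peaks and at most 1 new peak. On chromosome 16, positions 45800001 to 45900000, cover was 5.91% at D3 and 18.8% at D1, with 15 lost and 1 new peak, 3.81% at D5, no iPSC peak and 9.12% in MEF. A second region of chromosome 16, positions 57400001 to 57500000, had 8.49% at D3 and 19.2% at D1 with 16 lost peaks, 0.506% in iPSC and 20.4% in MEF. On chromosome 1, positions 71900001 to 72000000 had 3.56% at D3 and 13.7% at D1 with 13 lost peaks and no new one, no iPSC peak and 18.2% in MEF. On chromosome 2, positions 117900001 to 118000000 had 13.4% at D3 and 23.7% at D1 with 10 lost peaks, and 5.20% at D5. On chromosome 9, positions 56700001 to 56800000 had 16.5% at D3 and 27.9% at D1, with 12.8% in iPSC and 24.7% in MEF. Chromosome 16 had few iPSC overlaps throughout, so the low iPSC cover of its 2 regions is not particular to them. With 500-bp peaks, which leave out changes in width, the rises were 2.95 to 9 and the falls -7.47 to -3.50 percentage points. With 500-bp peaks and equal numbers in all lists together they were 2.50 to 4.95 and -6 to -2 points. When only peaks scoring at least 100 were used, the change was over 1.5 times smaller in 4 of the 10 regions: chromosome 17 with 9.50, chromosome 7 with 8.44, chromosome 1 with -6.65 and the second region of chromosome 16 with -4.04 points. With equal numbers in all lists this last region had -5.90 points. No region changed sign.

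The strongest new peaks scored well above the threshold and were found again later. The top 2 lay on chromosome 15 at positions 79983876 to 79985610, with a score of 415, and on chromosome 9 at 99294113 to 99296730, with a score of 414 and a width of 2618 bp. The next were on chromosome 15 at 36144072 to 36144750, score 367, on chromosome 12 at 103923538 to 103925865, score 358, and on chromosome 6 at 50376807 to 50378994, score 349. All 5 were overlapped at D5, none overlapped a MEF peak, and the first 4 overlapped an iPSC peak. In the strongest score quartile group 82.0% of new and 87.9% of kept D3 peaks were overlapped at D5, so this was common at high score. Of the new peaks of that quartile group 15.7% overlapped a MEF peak and 38.8% an iPSC peak. Each of the 5 named peaks lay near D1 peaks, at 321 to 3290 bp from the nearest.

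The strongest lost peaks were all MEF peaks as well. The first lay on chromosome 1 at 6269880 to 6271013 with a score of 575 and was 32054 bp from the nearest D3 peak. The second lay on chromosome 2 at 27640548 to 27642512, score 565, and 5160 bp from a D3 peak. The others were on chromosome 5 at 91118119 to 91119546, score 546, on chromosome 12 at 71902024 to 71902902, score 535, and on chromosome 5 at 73700652 to 73701417, score 521, with a D3 peak 172, 819 and 534 bp away. None of the 5 overlapped an iPSC peak. In the strongest score quartile group, 83.4% of lost and 75.3% of kept D1 peaks overlapped a MEF peak. For the iPSC list these shares were 6.69% and 27.6%. Both overlaps of the 5 named peaks were thus common among lost peaks of high score. At OSNK D3 all 5 were still overlapped, and at OySyNyK D5 the peaks on chromosome 12 and at 91118119 on chromosome 5 were overlapped again, so that among the OySyNyK intermediates these 2 were missing at D3 only. In the 9 alternatives these 10 peaks were left as deposited and only the other day's list was altered. None of the 10 overlapped a peak of that list in any of them. Alternatives that only remove peaks or ask for more overlap could not have given another outcome.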

How the data were processed

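Captured 5hmC DNA of 8 samples was sequenced, and the deposited files are 1 peak list per library. Per the submitters' processing notes, Bowtie and MACS were used. Whether a control library was used, and which versions and settings, is not given in the sources used here. The only measured column is the peak score deposited by the authors. The notes name hg18 and NCBI36, which are human. The lists hold 20 mouse chromosomes and extend past the last gene of GRCm38 on 10 of them. From general knowledge of chromosome lengths they match mm9, and no gene names or sequences were read by coordinates. Coordinates count from 1. The planned gene lists were not used for that reason.

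Overlaps, distances and shares were computed in Python 3.11.15 with scipy 1.17.1, pandas 2.3.3 and numpy 2.4.6, and plotted with matplotlib 3.10.9. They were tested on simulated lists, and counts for 14 pairs of lists equalled those of bedtools 2.31.1. Quartile groups split a day's list by score or width into 4 groups of equal number. Intervals are exact (Clopper-Pearson). Regions named are the 5 largest rises and 5 largest falls in cover, and peaks named are the 5 best-scoring new and lost ones. The members, lists and tests were chosen with earlier results of these data known. Alternatives are given in the closing section.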

Additional observations from a re-analysis of the deposited data

Results flagged for a closer look

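The sequence covered by peaks moved in opposite directions from D1 to D3 with the methods. With OySyNyK it was 74.3 Mb at D3 and 76.9 Mb at D1, a difference of -2.58 Mb, and with OSNK it was 98.2 Mb at D3 and 91.9 Mb at D1, a difference of 6.23 Mb. The median peak width at OSNK D3 was 911 bp, against 690 bp at OSNK D1, and with OySyNyK it was 680 bp at D3 and 662 bp at D1. On chromosome 9, positions 56700001 to 56800000, cover differed by -11.4 percentage points between D3 and D1 of OySyNyK and by 3.09 points between D3 and D1 of OSNK. Each of these rests on 1 library a side, and the difference between the methods was not tested.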

How the results depend on the processing

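Of 23 orders checked between classes of peaks, 16 held in all settings that gave both values. Among those that held, the order of the new and lost shares largely follows from the list lengths. The exceptions were the pooled iPSC shares of new and kept peaks, the pooled MEF shares of lost and kept peaks, the lost shares of D1 peaks of the MEF list only against neither and of the iPSC list only against both, the new shares of D3 peaks of the iPSC list only against neither, and widths, which are equal by construction with 500-bp peaks. D1 peaks of the iPSC list only and of both were lost in 13.2% and 14.5% of cases with b, 14.37% and 14.40% with d, and 19.03% and 19.8% with f, the letters being explained next. D1 peaks of the MEF list only and of neither were lost in 49.4% and 45.1% with f, and D3 peaks of the iPSC list only and of neither were new in 56.2% and 56.4% with d. Only the median log2 score ratios of kept pairs and the cover changes of the named regions could change sign, and none did. The other recomputed values cannot be negative. The settings were 50% or more of a peak overlapped (a), a score of at least 100 (b), equal numbers of D3 and D1 peaks (c), equal numbers in all lists (d), 500-bp peaks (e), 500-bp peaks with equal numbers in all lists (f), peaks within 1 kb merged (g), autosomes only (h) and, chosen after seeing the data, without chromosomes 13, 16 and 18 (i). For the shares and medians listed next, settings not named gave values within the interval of the full lists. The share of D3 peaks new was 37.95% (a), 31.7% (b), 37.2% (c), 38.7% (d), 38.1% (e), 42.8% (f) and 33.4% (g). The share of D1 peaks lost was 42.4% (a), 48.3% (b), 37.5% (c), 39.0% (d), 42.6% (e), 43.0% (f), 38.2% (g) and 39.2% (i). For new peaks, the median width was 597 bp (a), 803 bp (b), 709 bp (d), 500 bp by construction (e, f), 580 bp (g) and 587 bp (i). Their median score was 67.6 (a), 126 (b), 66.7 (c), 97.8 (d), 67.8 (e) and 100.0 (f). Their median distance to a D1 peak was 2587 bp (a), 5104 bp (b), 3307 bp (c), 4943 bp (d), 2783 bp (e), 4337 bp (f) and 4556 bp (g). Their MEF overlap was 9.67% (a), 8.63% (b), 10.8% (c), 14.0% (d), 9.72% (e), 12.8% (f) and 9.22% (g), and that of lost peaks 44.5% (a), 47.6% (b), 47.6% (c), 58.4% (d), 42.5% (e) and 54.7% (f). The iPSC overlap of new peaks was 17.2% (a), 11.9% (b), 24.4% (d), 18.2% (e), 22.2% (f) and 21.0% (i), and that of lost peaks 4.03% (a), 1.96% (b), 7.02% (d), 7.14% (f) and 5.83% (i). New peaks found at D5 made up 33.1% (b), 50.2% (d), 48.8% (f) and 37.7% (g). X peaks lost made up 75.2% (b). Regions of 100 kb with higher cover at D3 made up 31.0% (b), 44.8% (c), 45.2% (d), 32.6% (e) and 37.2% (f). The cause of these shifts was not tested. No paired analysis was possible because each group has 1 library. Gene loci were not run. Depth is unknown, so a missing peak can be a signal below the calling threshold.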
